A study of Mus musculus with 12 samples.

Results

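The genes described here are 10 that mark lipid-associated macrophages: Gpnmb, Mmp12, Atp6v0d2, Gdf3, Trem2, Spp1, Itgax, Itgad, Cd9 and Fabp5. They are 10 of the 24541 gene symbols measured, and were chosen by name after their levels in the old mice had been seen, so their values in old mice are a description and carry no test. RNA was sequenced from primary adipocytes of mouse epididymal fat in 12 libraries, 3 per group. The old AKO group came from 18-month-old mice with an adipocyte-specific knockout of Crtc2, a coactivator of the transcription factor CREB, and the old f/f group from 18-month-old mice with floxed Crtc2, whose genotype is also given as WT. The young AKO and young f/f groups had the same genotypes at 3 months of age, and all mice were of the C57BL/6N strain. The Cre driver, the isolation of the adipocytes and the sex of the mice are not given in the sources used here. Nothing says that each library came from a separate mouse, so p-values measure the spread between libraries.

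Lipid-associated macrophages gather around large or dying adipocytes, where they take up released lipid and break it down in lysosomes. Their gene program depends on Trem2, a surface receptor that binds lipids and signals through the adaptor Tyrobp. It includes secreted proteins (Mmp12, Spp1, Gdf3), proteins of the lysosome and its membrane (Gpnmb, Atp6v0d2), integrin chains (Itgax, Itgad), the membrane protein Cd9 and the fatty acid carrier Fabp5. In fat it is known from obesity, and some of its genes, Fabp5 among them, are also expressed by adipocytes.

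The libraries held 45935795 to 61125366 estimated reads each, and all 10 genes had enough reads to be among the 15068 tested. Old f/f replicate 3 stood apart: on the first principal component, with 48.4% of the variance, it lay at -103.8, and the other old f/f libraries at -72.42 and -69.17. On the second component, with 12.5%, young f/f replicate 1 lay at 23.05 and the other young f/f libraries at -50.53 and -45.88. Crtc2 went against its labels. It had 7751, 15024 and 15248 estimated reads in the young libraries labelled AKO, against 2684, 3567 and 4256 in young f/f (log2 difference 1.89 ± 0.21, SE, edgeR adjusted p = 0.0073). In old mice it had 9179, 9977 and 9144 reads in the libraries labelled AKO, against 2918, 2891 and 2521 in f/f (1.66 ± 0.21, edgeR adjusted p = 0.0125). The test was no longer passed without old AKO replicate 2 (1.64, adjusted p = 0.074) or 3 (1.71, adjusted p = 0.0694). A gene total does not show which exons the reads cover, and whether genotype labels or columns were exchanged was not tested. An exchange would turn the sign of every difference between AKO and f/f. The group names below are those of the labels, and AKO stands for the libraries labelled AKO. Adipocyte genes were abundant, as the cell label says: Adipoq, which encodes the hormone adiponectin, averaged 5190 CPM (reads scaled to the effective library total) in old AKO and 3550 CPM in old f/f, with 4820 CPM in young AKO and 4870 CPM in young f/f.

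In old mice all 10 genes were lower in AKO than in f/f, with a median log2 difference of -3.85, where the median of all genes tested was -0.01. For 8 of them, all but Itgad and Fabp5, every AKO library lay below every f/f library. Groups of all genes tested parted in this way, with AKO lower, in 20.3%. The edgeR test called 6 of the 10 genes lower, and 5.16% of all genes, and nothing is read from these counts since the old libraries led to the choice of genes. Fewer macrophages in a library and less RNA per macrophage cannot be told apart in bulk RNA.

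The lipid receptor gene Trem2 (chr17:48346401-48352276, mm10) had 5.65, 7.39 and 4.16 CPM in old AKO, against 35.8, 16.8 and 189 CPM in old f/f (log2 difference -3.81 ± 0.78, SE, n = 3 each). Old f/f replicate 3 was the highest library by far, and the lowest f/f library was still above the highest AKO library. Gpnmb (chr6:49036518-49058182), a glycoprotein of lysosomal membranes, had 17.4, 36.1 and 12 CPM in old AKO, against 183, 66.3 and 1380 CPM in old f/f (-4.64 ± 1.04). Atp6v0d2 (chr4:19876838-19922566), a subunit of the proton pump that acidifies lysosomes, had 2.30, 4.48 and 2.54 CPM in old AKO, against 30.9, 11 and 175 CPM in old f/f (-4.54 ± 0.88). In both genes replicate 3 was the highest library of old f/f and replicate 2 the highest of old AKO, and the groups did not overlap.

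Among the secreted proteins, Mmp12 (chr9:7344397-7360461), the macrophage elastase that cuts matrix proteins, had 8.52, 15.7 and 8.75 CPM in old AKO, against 124, 53.9 and 537 CPM in old f/f (-4.44 ± 0.81). Spp1 (chr5:104435111-104441053) encodes osteopontin, a ligand of integrins and CD44. It had 0.509, 2.64 and 0.707 CPM in old AKO, against 7.67, 3.84 and 45.7 CPM in old f/f (-3.88 ± 1.12). Gdf3 (chr6:122605403-122610087), a ligand of the TGF-beta family, was the rarest of the genes in old AKO, with 8, 16 and 8 reads (0.131, 0.258 and 0.135 CPM), against 196, 66 and 711 reads (3.04, 1.18 and 14.1 CPM) in old f/f (-5.11 ± 1.12). None of these 3 genes had overlapping groups in old mice, and Gdf3 had the largest difference of the 10.

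The integrin genes, neighbours on chromosome 7, had unequal differences. Itgax (chr7:128129568-128150657), the CD11c chain, had 3.56, 7.18 and 4.71 CPM in old AKO, against 27, 15.8 and 165 CPM in old f/f (-3.74 ± 0.80). Itgad (chr7:128173946-128205503), the CD11d chain, had 0.870, 3.17 and 0.741 CPM in old AKO, against 3.13, 1.93 and 12.7 CPM in old f/f (-1.89 ± 0.89). Its groups overlapped, since old AKO replicate 2 was above 2 of the 3 f/f libraries. Cd9 (chr6:125460266-125494755), a tetraspanin that organises receptors in the membrane, had 26.3, 28.8 and 15.4 CPM in old AKO, against 44.5, 41.1 and 116 CPM in old f/f (-1.51 ± 0.40). Fabp5 (chr3:10012585-10016610) had 189, 153 and 146 CPM in old AKO, against 215, 164 and 246 CPM in old f/f (-0.36 ± 0.31). Its groups overlapped, and its difference was the smallest of the 10.

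**Figure D1:**
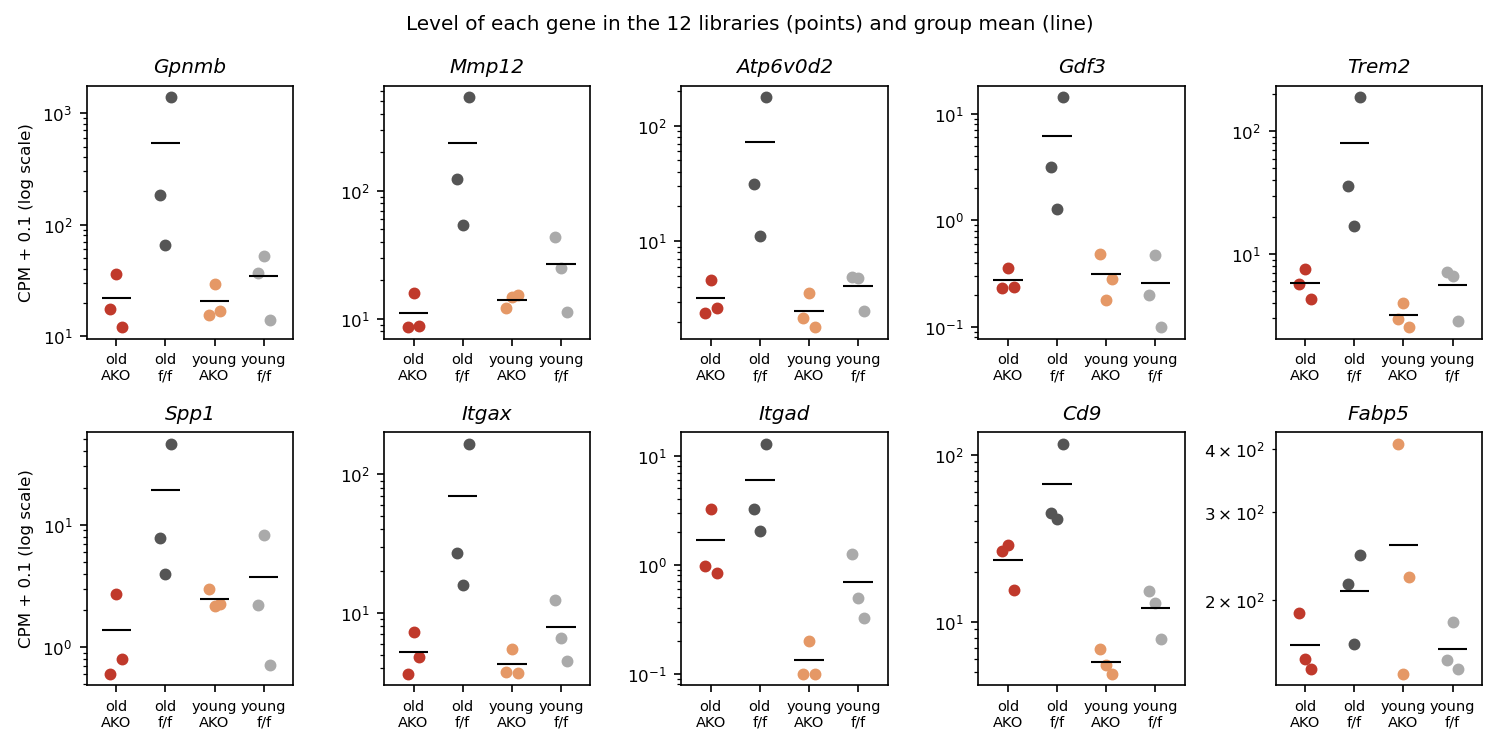
Level of each of the 10 genes in every library, as CPM + 0.1 on a log axis, by group (old AKO, old f/f, young AKO, young f/f), with a line at the mean of the 3 libraries. Old f/f replicate 3 is the highest old library for every gene, at 1380 CPM for Gpnmb and 246 CPM for Fabp5, while Itgad is at 0 reads in 2 young AKO libraries.

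Old f/f replicate 3 held 71.6% (Itgad) to 84.7% (Gpnmb) of the summed CPM of its group for 8 of the genes, against 57.5% for Cd9 and 39.4% for Fabp5. Without it all 10 genes were still lower in old AKO, with a median of -2.17. The log2 differences were then -2.5 for Gpnmb, -3.0 for Mmp12, -2.74 for Atp6v0d2, -3.57 for Gdf3, -2.19 for Trem2, -2.15 for Spp1 and -2.04 for Itgax. They were -0.65 for Itgad, -0.85 for Cd9 and -0.21 for Fabp5. The mean CPM of old f/f replicates 1 and 2 was 4.16 times (Itgax) to 12.1 times (Gdf3) the mean of old AKO for the 7 genes other than Itgad, Cd9 and Fabp5. For those 3 genes it was 1.59, 1.82 and 1.16 times.

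The promoters of genes whose old groups parted are shown for what they share in sequence. Of the 10 genes, 6 matched a RefSeq promoter table of mouse GRCm38.p6 (Cd9, Gpnmb, Itgax, Mmp12, Spp1 and Trem2), with 8 windows, and Atp6v0d2, Gdf3, Itgad and Fabp5 did not. The 250 bases before each start were searched on both strands for 5 motifs: CACGTG (an E-box of lysosomal genes), TCATGTG (the M-box of MITF), GAGGAA (an ETS core, the family of PU.1), TGANTCA (AP-1) and TATAAA (known as the TATA box). The windows of Trem2, Itgax and the 2 starts of Mmp12 are printed, since they hold all 3 AP-1 matches and the single M-box. All lie on the plus strand, run 5′ to 3′ and have matches in capitals, as TTCCTC or CACATGA where the match is on the minus strand.
Trem2, chr17:48346151-48346400: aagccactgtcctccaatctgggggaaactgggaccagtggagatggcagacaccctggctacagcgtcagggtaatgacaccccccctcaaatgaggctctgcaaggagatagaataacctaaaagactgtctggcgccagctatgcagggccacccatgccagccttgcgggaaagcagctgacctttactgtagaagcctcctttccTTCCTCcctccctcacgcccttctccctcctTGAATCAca
Itgax, chr7:128129300-128129549: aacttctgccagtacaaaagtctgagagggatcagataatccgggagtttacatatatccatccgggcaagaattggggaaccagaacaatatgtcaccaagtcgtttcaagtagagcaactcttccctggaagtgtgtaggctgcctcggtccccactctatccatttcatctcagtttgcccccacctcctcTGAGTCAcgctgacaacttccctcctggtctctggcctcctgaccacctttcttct
Mmp12 upstream start, chr9:7344147-7344396: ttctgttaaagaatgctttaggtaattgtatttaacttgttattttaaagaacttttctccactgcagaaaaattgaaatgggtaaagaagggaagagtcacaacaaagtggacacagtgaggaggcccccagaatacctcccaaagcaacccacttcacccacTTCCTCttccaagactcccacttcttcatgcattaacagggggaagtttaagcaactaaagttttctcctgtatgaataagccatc
Mmp12 main start, chr9:7347124-7347373: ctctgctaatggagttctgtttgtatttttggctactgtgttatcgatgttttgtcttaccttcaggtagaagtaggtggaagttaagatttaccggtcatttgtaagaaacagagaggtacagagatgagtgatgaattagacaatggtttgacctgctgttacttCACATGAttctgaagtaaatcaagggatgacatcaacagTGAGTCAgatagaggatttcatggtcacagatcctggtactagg

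TGANTCA lay 9 bases before the start of Trem2, 56 before that of Itgax and 44 before the main start of Mmp12. These are 3 of 8 windows, and 6.75% of the 32851 promoters of the table hold the letters. For Itgax the window ends at position 128129549 and the counted transcript begins at 128129568, so the start used here is not that of the transcript. GAGGAA was found 40 bases before the start of Trem2, 86 before the upstream start of Mmp12 and 113 before a start of Spp1, while 23.3% of all promoters hold it. TCATGTG lay 83 bases before the main start of Mmp12 and in no other window (3.25% of all promoters). TATAAA lay 211 bases before a start of Spp1 (12.4% of all promoters). CACGTG was in none of the 8 windows, against 6.02% of all promoters. No motif overlapped another in these windows, and a match is only a description of the letters.

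Both printed Mmp12 starts are used by transcripts of the table. A transcript of 3607 bases and one of 3665 bases (variants 1 and 2) begin at position 7347374 of chromosome 9, and one of 3449 bases (variant 3) at 7344397. Variant 3 had 0 reads in each old AKO library, against 2, 0 and 158 reads in old f/f, and in young mice 0, 0 and 4 reads in AKO and 0 in each f/f library. Nearly all Mmp12 reads were therefore assigned to the main start, whose window holds the M-box and AP-1 letters. Variant 2 took 0%, 4.19% and 0.385% of the Mmp12 reads in old AKO, against 19.1%, 2.39% and 23.7% in old f/f. Its share was 0% to 0.951% in young AKO and 0.668% to 2.05% in young f/f. The old groups overlapped in this share, and the authors' counting divides reads between transcripts that share most of their sequence.

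**Figure D2:**
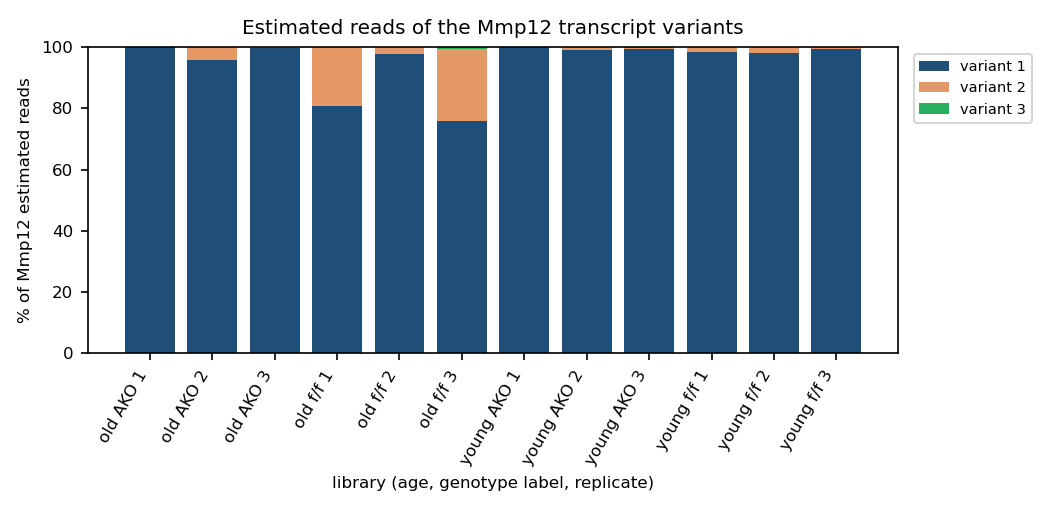
Share of the estimated Mmp12 reads assigned to each of 3 transcript variants (stacked bars, % of Mmp12 reads) in every library. Variant 2 is above 5% in old f/f replicates 1 and 3 alone, at 19.1% and 23.7%.

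With age in f/f mice all 10 genes were higher, with a median log2 difference of 3.25 in old against young f/f. The groups did not overlap for 8 of them, all but Spp1 and Fabp5, and edgeR called 8 higher. Of all genes tested, 23.0% had groups parted in this direction and 14.2% were called higher, and again nothing is read from the counts because the old f/f libraries led to the choice. Gdf3 was furthest apart, at 6.10 ± 6.98 CPM in old f/f and 0.159 ± 0.195 CPM in young f/f (5.24 ± 1.14). Trem2 averaged 80.7 ± 94.7 CPM in old f/f and 5.46 ± 2.36 CPM in young f/f (3.89 ± 0.79). Cd9 averaged 67.0 ± 42.0 CPM in old f/f and 12 ± 3.74 CPM in young f/f (2.49 ± 0.42). Spp1 had 7.67, 3.84 and 45.7 CPM in old f/f, against 2.11, 8.17 and 0.616 CPM in young f/f, so that a young library lay among the old ones. Without old f/f replicate 3 the median was 1.84.

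With age in AKO mice the genes went different ways, with a median log2 difference of 0.19 in old against young AKO, 6 above 0 and 4 below. Trem2, Itgad and Cd9 were higher in every old AKO library than in any young one, and edgeR called 2 genes higher. Over all genes tested the groups parted in this direction for 23.9%, and 10.4% were called higher. Cd9 averaged 23.5 ± 7.16 CPM in old AKO and 5.66 ± 0.997 CPM in young AKO (2.05 ± 0.42). Itgad had 53, 197 and 44 reads in old AKO, against 0, 5 and 0 reads in young AKO (5.50 ± 1.3). Trem2 had 5.65, 7.39 and 4.16 CPM in old AKO, against 2.84, 3.92 and 2.44 CPM in young AKO (0.90 ± 0.74). The groups of the other 7 overlapped. Gpnmb, for one, had 17.4, 36.1 and 12 CPM in old AKO and 15.4, 29.3 and 16.7 CPM in young AKO (0.09 ± 0.90). Mmp12 (-0.35 ± 0.71), Gdf3 (-0.28 ± 1.14), Spp1 (-0.88 ± 1.05) and Fabp5 (-0.67 ± 0.31) had differences below 0. Without old AKO replicate 2 the median was -0.25. The 2 ageing comparisons share no library with each other, but each shares a group with the comparison of old genotypes.

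**Figure D3:**
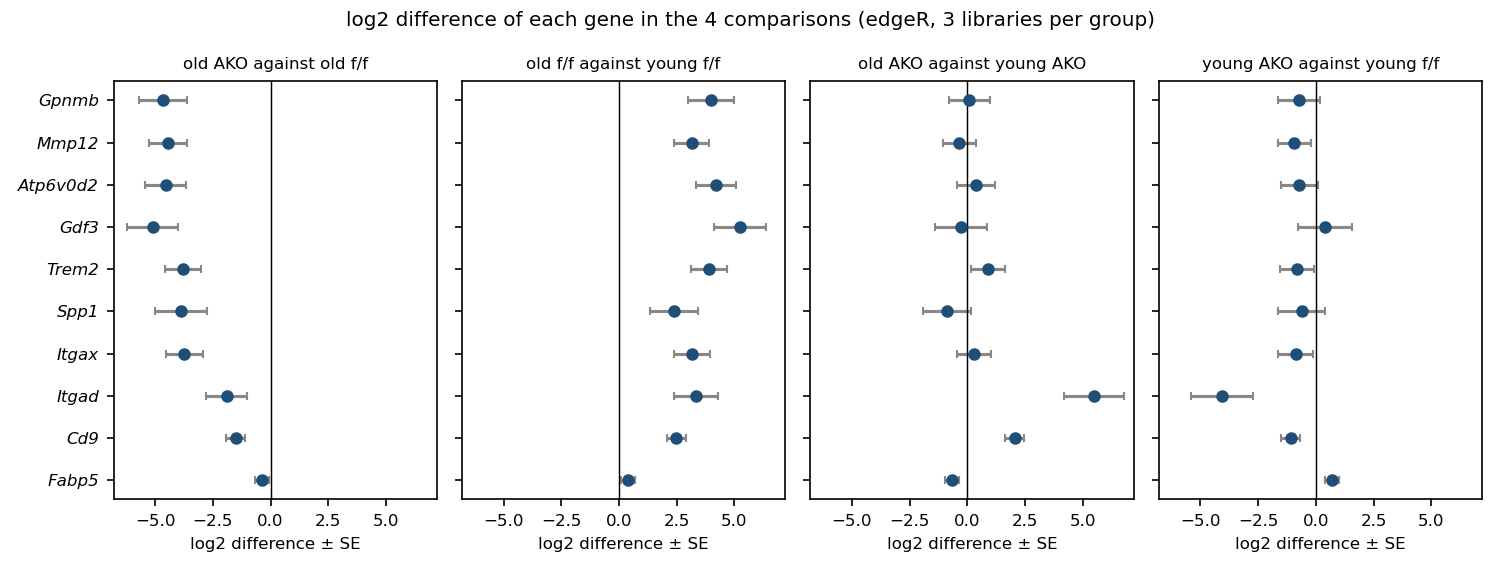
Log2 difference ± SE of each gene (rows) from the edgeR fit in 4 comparisons, with the group named first on top of the ratio and n = 3 libraries per group. All 10 points lie below 0 in old AKO against old f/f and above 0 in old f/f against young f/f, while in young AKO against young f/f 8 lie below 0 and Gdf3 and Fabp5 above.

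In young mice the genes were tested, since these libraries are not part of the old genotype comparison that led to the choice. Earlier results of these data were known when the genes were chosen, so the test is not wholly independent of the choice. It also shares an estimate of spread with the old libraries. Of the 10, 8 were below 0 in young AKO against young f/f, with a median log2 difference of -0.79 where the median of all genes tested was 0.01. The edgeR test called 0 of the 10, with 3 at an unadjusted p under 0.05, and limma-voom also called 0. The edgeR test called 0.976% of all genes tested in either direction and 0.790% lower. Without old f/f replicate 3 it called 447 of all genes in young mice, against 147 with it, and still 0 of the 10. The DESeq2 test called 1 of the 10, Itgad (-4.17, adjusted p = 0.00669). Itgad and Cd9 had groups that did not overlap, with AKO lower, as 11.0% of all genes tested did.

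Itgad had 0, 5 and 0 reads in young AKO, against 57, 21 and 12 reads in young f/f (-4.06 ± 1.34, edgeR adjusted p = 0.13). The size of its difference depends on 5 reads in a single AKO library, young AKO replicate 2, and was -8.03 without that library. The edgeR adjusted p ran between 0.0822 and 0.333 with a library left out. Cd9 had 6.75, 5.44 and 4.80 CPM in young AKO, against 15.1, 12.9 and 7.84 CPM in young f/f (-1.08 ± 0.41, adjusted p = 0.18). Fabp5 pointed the other way, with 409, 143 and 222 CPM in young AKO, against 152, 181 and 146 CPM in young f/f (0.69 ± 0.31, adjusted p = 0.248). Its groups overlapped, and without young AKO replicate 1, the highest library, the difference was 0.19.

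The other 7 genes had overlapping groups in young mice. Trem2 had 2.84, 3.92 and 2.44 CPM in young AKO, against 7.07, 6.55 and 2.74 CPM in young f/f (-0.83 ± 0.74, adjusted p = 0.59). Gpnmb had 15.4, 29.3 and 16.7 CPM in young AKO, against 36.7, 52.2 and 13.8 CPM in young f/f (-0.74 ± 0.91, adjusted p = 0.709). In both genes young f/f replicate 3 lay among or below the AKO libraries, while the other f/f libraries were above them. Mmp12 (-0.93 ± 0.71), Itgax (-0.88 ± 0.75), Atp6v0d2 (-0.72 ± 0.81) and Spp1 (-0.62 ± 1.02) had adjusted p-values of 0.524 to 0.794. Gdf3 had 18, 4 and 10 reads in young AKO and 5, 20 and 0 reads in young f/f (0.41 ± 1.17, adjusted p = 0.884). It turned to -0.26 without young AKO replicate 1 and -0.17 without young f/f replicate 3, and Spp1 to 0.80 without young f/f replicate 2. With errors of this size a difference of 2-fold in either direction was not detectable for most of these genes.

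Levels can be set beside each other between genes only per length, as FPKM (a read density scaled to transcript length and library total). Fabp5 was the highest of the 10 in every group, at 172 ± 27.5 FPKM in old AKO, 234 ± 48.7 in old f/f, 245 ± 131 in young AKO and 163 ± 22.1 in young f/f. In old AKO it was followed by Cd9 (19.9 ± 6.14), Gpnmb (5.78 ± 3.30), Trem2 (5.22 ± 1.47) and Mmp12 (3.06 ± 1.12), then Itgax (1.28 ± 0.449), Atp6v0d2 (1.24 ± 0.470), Spp1 (0.874 ± 0.804), Itgad (0.402 ± 0.343) and Gdf3 (0.0824 ± 0.0334). In old f/f the order was Fabp5, Gpnmb (154 ± 208), Trem2 (78.8 ± 93.4), Mmp12 (70.8 ± 78.3), Cd9 (60.2 ± 38.6), Atp6v0d2 (31.1 ± 38.7), Itgax (18.5 ± 22.3), Spp1 (14.4 ± 17.6), Gdf3 (3.08 ± 3.56) and Itgad (1.61 ± 1.62). The ranges of every pair of neighbours in this old f/f order overlapped. In old AKO Fabp5, Cd9, Mmp12 and Itgad each lay above the next gene without overlap. Cd9 was thus the second in old AKO and the fifth in old f/f. In young AKO Gpnmb (4.88 ± 1.89 FPKM), Cd9 (4.29 ± 0.801), Mmp12 (3.50 ± 0.398) and Trem2 (2.50 ± 0.672) followed Fabp5, each range overlapping the next, and Itgad was last at 0.00739 ± 0.0128 FPKM. In young f/f Cd9 (9.71 ± 3.08) and Gpnmb (8.75 ± 5.05) followed Fabp5, and Gdf3 was last at 0.0703 ± 0.0920 FPKM.

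Genes of macrophages of every subset moved with these 10 genes. Of 18 such markers, 16 fell in old AKO against old f/f by the edgeR test, with a median log2 difference of -2.46. They include Adgre1, which encodes F4/80 (14.5 CPM in old AKO and 138 CPM in old f/f, -3.25 ± 0.63, adjusted p = 0.0193), Csf1r, the receptor of the macrophage growth factor (48.3 and 224 CPM in old AKO and old f/f, -2.22 ± 0.41, adjusted p = 0.0189), and Cd68 (22.7 and 192 CPM, -3.08 ± 0.62, adjusted p = 0.0205). The complement gene C1qa (-1.91 ± 0.30) and the lysozyme gene Lyz2 (-2.65 ± 0.46) also fell, each with an adjusted p of 0.0189. The summed level of the 18 markers was 456 to 634 CPM in old AKO, 1280 to 5660 CPM in old f/f, 293 to 369 CPM in young AKO and 456 to 574 CPM in young f/f, and none was at 0. All 18 were therefore read in cells labelled adipocytes, and the part of macrophage number in the values of the 10 genes was not tested. Without old AKO replicate 1, 2 or 3 the count of 16 went to 0 each time, and 12, 5 and 4 of all genes were then called, against 897. In young mice 16 of the 18 markers were below 0 in AKO, with a median of -0.92. There edgeR called 0, with 5 at an unadjusted p under 0.05, where DESeq2 called 2 lower and limma-voom 0. Without old f/f replicate 3 edgeR called 7 lower.

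Relative to the mean log2 CPM of the 18 markers in the same library, the 10 genes were lower in old AKO than in old f/f by a median of -1.25. This is a description, since the old libraries led to their choice. The marker mean itself differed by -2.04. Gdf3 (-2.30), Mmp12 (-1.82), Gpnmb and Atp6v0d2 (-1.67 each), Spp1 (-1.42), Trem2 (-1.08) and Itgax (-1.02) were below the markers. Of these 7, Gpnmb and Spp1 had overlapping groups, and the other 5 did not, with AKO lower. On this scale 0.942% of all genes tested had groups parted in that direction and 86.2% in the other, and nothing is read from the counts, for the same reason. Fabp5 (1.69), Cd9 (0.65) and Itgad (0.31) were above, so they differed less between the old groups than the markers did. The groups of Cd9 and Fabp5 did not overlap on this scale, with AKO higher, and those of Itgad did. With Adgre1, Csf1r and Cd68 as the only markers the median was -0.84. In young mice the median relative to the markers was 0.14, with Itgad at -2.99 and Gdf3 at 1.93, and in AKO ageing it was -0.81, against 0.80 in f/f ageing.

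**Figure D4:**
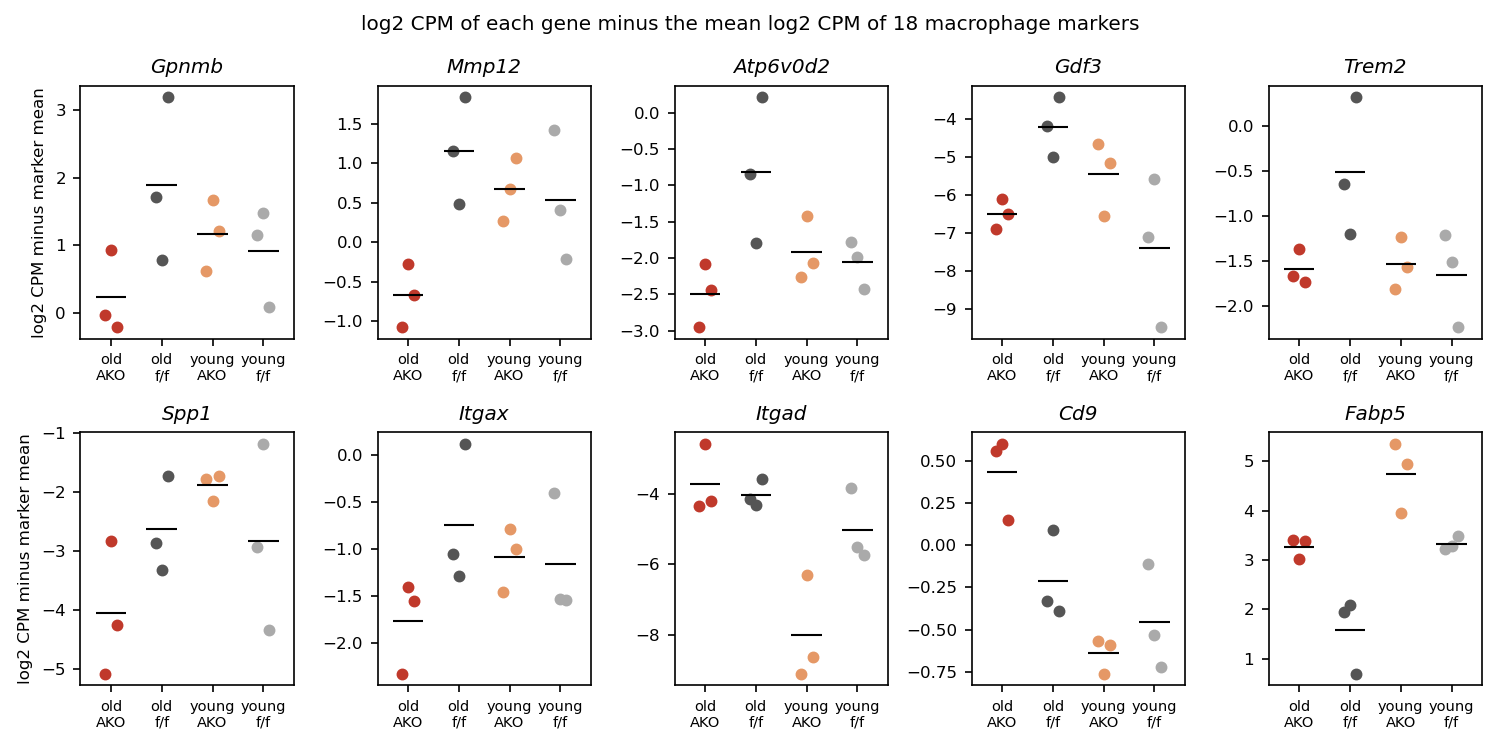
Log2 CPM of each gene minus the mean log2 CPM of 18 macrophage markers in the same library (points), by group, with a line at the mean of 3 libraries. Old AKO lies below old f/f for Mmp12 by 1.82 without overlap and above it for Cd9 by 0.65, and Itgad is lowest in young AKO.

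Genes of resident adipose macrophages rose with age in both genotypes. Of 16 such genes, 15 rose in old f/f against young f/f (median 1.91) and 15 in old AKO against young AKO (median 1.26), while 11 fell in old AKO against old f/f (median -1.11). They include the mannose receptor Mrc1, which averaged 35.6 CPM in old AKO and 15.6 CPM in young AKO (1.19 ± 0.32, adjusted p = 0.0278), and Lyve1, a hyaluronan receptor (1.19 ± 0.27, adjusted p = 0.0168). The lectin gene Clec10a rose in old AKO (1.48 ± 0.23, adjusted p = 0.00453), as did Cbr2 (1.04 ± 0.13, adjusted p = 0.00175). Of the 18 markers of every subset, 16 rose in f/f ageing (median 2.59) and 5 in AKO ageing (median 0.97, 16 above 0). The difference between the lists was not tested. The count of 15 in AKO ageing was 6 without old AKO replicate 1 or young AKO replicate 3. The count of 5 was 1 without either of these, 2 without old AKO replicate 2, and 13 without old f/f replicate 3, which enters through the shared estimate of spread. The count of 11 went to 1, 0 and 0 without old AKO replicate 1, 2 and 3.

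Further genes known from lipid-associated macrophages, 25 in number and all apart from the 10, gave 10 that fell in old AKO (median -0.78) and 15 that rose in f/f ageing (median 1.10). The cysteine protease gene Ctss averaged 25.2 CPM in old AKO and 304 CPM in old f/f (-3.59 ± 0.63, adjusted p = 0.0189). The scavenger receptor Msr1 (-2.90 ± 0.54), the surface receptor Cd84 (-3.52 ± 0.67) and the metalloproteinase inhibitor Timp2 (-1.20 ± 0.22) fell too, each with an adjusted p of 0.0189. In AKO ageing 2 of the 25 rose (median 0.32, 22 above 0). Timp2 was the 1 gene of the list called lower in young AKO, at 30.6 CPM against 66.0 CPM in young f/f (-1.11 ± 0.22, adjusted p = 0.0477). The count of 10 went to 0 without any 1 of the old AKO libraries and to 3 with limma-voom, and the count of 15 was 10 without old f/f replicate 3 and 9 without young f/f replicate 3. The 2 rises in AKO ageing were 1 without any 1 of the AKO libraries of either age, old f/f replicate 1 or young f/f replicate 2, and 4 without old f/f replicate 3. The 1 call in young mice was there without old AKO, old f/f or young f/f replicate 3, and gone without any other library.

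Genes through which the TREM2 receptor signals were lower in old AKO, like Trem2. Of 14 signalling genes, 12 fell in old AKO (median -2.23) and 12 rose in f/f ageing (median 2.39). The 18 macrophage markers had medians of -2.46 and 2.59 in these comparisons. Of all genes tested 5.16% were called lower in old AKO. The adaptor Tyrobp had 12.7, 16.4 and 9.81 CPM in old AKO, against 56.4, 34.2 and 208 CPM in old f/f (-2.94 ± 0.57, adjusted p = 0.0193). As for Trem2, every AKO library lay below every f/f library and old f/f replicate 3 was highest. The kinase gene Syk (-2.51 ± 0.47, adjusted p = 0.0189), Plcg2, a phospholipase (-2.12 ± 0.43, adjusted p = 0.0212), and the adaptor Lat2 (-3.34 ± 0.65, adjusted p = 0.0195) also fell. In AKO ageing all 14 were above 0, with a median of 1.07. There edgeR called 0 of the 14, with 4 at an unadjusted p under 0.05, DESeq2 called 2 and limma-voom 0. That count was 2 without old f/f replicate 2 and 8 without replicate 3 of that group, and the count of 12 in old AKO went to 0 without any 1 of the old AKO libraries and was 3 with limma-voom. In young mice all 14 were below 0 in AKO (median -0.99), and edgeR called 0, with 3 at an unadjusted p under 0.05, where DESeq2 called 3 and limma-voom 0. Without old f/f replicate 3, which enters through the shared estimate of spread, edgeR called 3 lower.

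The integrin chains Itgax and Itgad pair with the beta chain Itgb2. Itgb2 had 15, 16.5 and 12.5 CPM in old AKO, against 87.7, 47.2 and 360 CPM in old f/f (-3.49 ± 0.64, adjusted p = 0.0189). The groups did not overlap. Of 10 partners and relatives of these chains, 7 fell in old AKO (median -1.42), among them Itgam, the CD11b chain (-2.90 ± 0.51, adjusted p = 0.0189), and Fermt3, which activates integrins (-2.63 ± 0.51, adjusted p = 0.0194). Of 8 osteopontin receptor genes 3 fell in old AKO (median -0.57): Cd44 (-2.26 ± 0.58, adjusted p = 0.0454), Itga4 (-2.47 ± 0.41, adjusted p = 0.0189) and Itga9 (-1.21 ± 0.25, adjusted p = 0.0214). Without old AKO replicate 1, 2 or 3 both counts went to 0, and without old f/f replicate 3 they were 3 and 1.

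No receptor or mediator gene of Gdf3 was called in old mice. Its receptor in adipocytes, Acvr1c, had 230, 296 and 278 CPM in old AKO, against 234, 216 and 165 CPM in old f/f (0.39 ± 0.23, adjusted p = 0.352). The old groups overlapped. Acvr1c fell in f/f ageing, at 205 CPM in old f/f and 355 CPM in young f/f (-0.79 ± 0.23, adjusted p = 0.0317), while Gdf3 was higher there, and the receptor gene Acvr1b fell too (-0.55 ± 0.17, adjusted p = 0.0398). Of the 8 tested genes of this list edgeR called 0 in the comparison of old genotypes, with 1 at an unadjusted p under 0.05, and DESeq2 and limma-voom called 0. The 2 falls in f/f ageing were 0 without old f/f replicate 3, and 1 without old f/f replicate 1 or 2, old AKO replicate 2, young AKO replicate 2 or young f/f replicate 3. Acvr1c is also among the 12 adipocyte markers described below. In f/f ageing 7 of these 12 fell (median -0.54, 11 below 0), and 3 to 7 with a library left out. The part of adipocyte number in the Acvr1c values was not tested.

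Other genes of the proton pump to which Atp6v0d2 belongs were set beside it. Of 18 such subunit genes edgeR called 0 in old AKO against old f/f (median -0.18), with 7 at an unadjusted p under 0.05, where DESeq2 called 2 lower and limma-voom 0. The count was 1 lower without old f/f replicate 1 and 2 lower without old f/f replicate 2. Atp6v0d1, the d subunit found in most cells, averaged 132 CPM in old AKO and 139 CPM in old f/f (-0.08 ± 0.08, adjusted p = 0.612), with 137 CPM in young AKO and 136 CPM in young f/f. In f/f ageing 4 of the 18 rose, among them Tcirg1, an a subunit of osteoclasts and immune cells (1.37 ± 0.40, adjusted p = 0.0335), and Atp6v1b2 (0.80 ± 0.24, adjusted p = 0.0357). That count was 0 without old f/f replicate 3, old AKO replicate 3, or young f/f replicate 2 or 3, and 2 without old AKO replicate 1 or 2, old f/f replicate 1 or young AKO replicate 3. Osteoclasts use Atp6v0d2 as well, and of 11 tested osteoclast genes 4 fell in old AKO (median -0.84), among them the fusion receptor Dcstamp (-4.01 ± 0.65, adjusted p = 0.0189), Mmp9 (-1.93 ± 0.33, adjusted p = 0.0189) and the protease Ctsk (-2.19 ± 0.47, adjusted p = 0.025). That count went to 0 without any 1 of the old AKO libraries.

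Relatives of Mmp12, Cd9 and Fabp5 had a few genes called in old AKO. Of 14 tested matrix metalloproteinases and their inhibitors 4 fell in old AKO (median -1.12): Mmp9, Timp2, Mmp14 (-1.03 ± 0.20, adjusted p = 0.019) and Mmp2 (-1.31 ± 0.30, adjusted p = 0.0319). Of 12 tetraspanins other than Cd9 only the leukocyte genes Cd53 (-2.75 ± 0.51, adjusted p = 0.0189) and Cd37 (-2.23 ± 0.45, adjusted p = 0.021) fell. Among 6 tested fatty acid-binding protein genes other than Fabp5, Fabp7 fell, at 0.120 CPM in old AKO and 1.25 CPM in old f/f (-3.35 ± 0.65, adjusted p = 0.0195). The adipocyte form Fabp4 averaged 14400 CPM in old AKO and 12900 CPM in old f/f (0.16 ± 0.17, adjusted p = 0.632). All 3 counts went to 0 without old AKO replicate 1, 2 or 3. Without old f/f replicate 3 the first was 2 and the third was 0.

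Of 14 transcription factors of lysosome, lipid and macrophage genes 3 fell in old AKO (median -0.37), among them Spi1, which encodes PU.1 (6.06 CPM in old AKO and 42.7 CPM in old f/f, -2.81 ± 0.53, adjusted p = 0.0189), and Irf8 (-1.26 ± 0.24, adjusted p = 0.0189). The count was 0 without any 1 of the old AKO libraries. The MITF family, known to drive Gpnmb and lysosomal genes, had no member that passed the test, and all but Tfec differed by less than Irf8. Mitf averaged 12.6 CPM in old AKO and 21.1 CPM in old f/f (-0.75 ± 0.36, adjusted p = 0.25), Tfeb 13.3 and 18.6 CPM (-0.48 ± 0.19, adjusted p = 0.168), Tfe3 45.1 and 50.4 CPM (-0.16 ± 0.14, adjusted p = 0.552) and Tfec, of macrophages, 0.432 and 1.85 CPM (-2.09 ± 0.57, adjusted p = 0.057). Tfec rose in f/f ageing (2.68 ± 0.59, adjusted p = 0.0114), while Mitf, Tfeb and Tfe3 had differences of 0.13 ± 0.35, 0.45 ± 0.19 and -0.01 ± 0.14 there.

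Of 16 genes of lipid uptake and of the clearance of dying cells 3 fell in old AKO (median -0.19): Msr1, the oxidised lipoprotein receptor Olr1 (0.556 CPM in old AKO and 6.21 CPM in old f/f, -3.48 ± 0.64, adjusted p = 0.0189) and Soat1, which esterifies cholesterol (-2.63 ± 0.52, adjusted p = 0.0198). That count went to 0 without any 1 of the old AKO libraries. Progenitor and fibroblast markers fell as well, 4 of 10 (median -0.90), among them Lum, a proteoglycan of the matrix (9.84 CPM in old AKO and 30.0 CPM in old f/f, -1.61 ± 0.17, adjusted p = 0.0054). Their summed level was 842 to 1030 CPM in old AKO and 1490 to 1710 CPM in old f/f. The count of 4 was 1 without any 1 of the old AKO libraries and 2 without old f/f replicate 2 or 3.

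Markers of other cells gave few calls in old mice, though every list here but the adipocyte one had a median below 0 in AKO. Of 12 adipocyte markers 3 rose in old AKO against old f/f (median 0.55), among them the lipid droplet gene Plin1 (1750 CPM in old AKO and 1190 CPM in old f/f, 0.55 ± 0.14, adjusted p = 0.0407). Their summed level was 55400 to 58600 CPM in old AKO and 34600 to 45000 CPM in old f/f, lowest in old f/f replicate 3, where the 10 genes were highest. The count of 3 was 0 without any 1 of the old AKO libraries, without old f/f replicate 3 or without young AKO replicate 3, and 1 without young f/f replicate 2 or 3. All 10 monocyte genes (median -1.51) and 8 of 10 dendritic cell genes (median -0.74) were below 0. Their summed levels were 21.5 to 22.6 and 19.1 to 22.9 CPM in old AKO, against 46.8 to 79.1 and 27.2 to 32.5 CPM in old f/f. The edgeR test called 2 monocyte genes and 1 dendritic cell gene lower. Both counts went to 0 without any 1 of the old AKO libraries, and the second also without old f/f replicate 3, while it was 2 without young AKO replicate 3. Endothelial, mesothelial, smooth muscle and mast cell lists had 0 genes called in old mice by edgeR, with medians of -0.48, -0.67, -0.33 and -0.65. In these lists 10 of 10, 8 of 8, 7 of 8 and 8 of 8 genes were below 0. At an unadjusted p under 0.05 the lists had 2, 0, 1 and 1 genes, DESeq2 called 1, 0, 1 and 0, and limma-voom 0 in each. Of 4 tested T and NK cell markers, 7 B and plasma cell markers and 4 neutrophil markers 1 each fell, and none did without any 1 of the old AKO libraries. The medians of these lists were -0.99, -0.85 and -0.94, with 4, 6 and 3 genes below 0. The call in B cell markers was also lost without old f/f replicate 3 or young AKO replicate 3, and that in neutrophil markers without old f/f replicate 3, young AKO replicate 2 or 3, or young f/f replicate 1 or 3. Epididymis and germ cell genes had 0 of 6 called by edgeR, with 5 at an unadjusted p under 0.05, where DESeq2 called 3 lower and limma-voom 0. Without old f/f replicate 2 edgeR called 1 lower. The summed level of the list was highest in old AKO replicate 1 (73.2 CPM).

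Vessel and lining cell markers rose with age in AKO mice beside the resident macrophage genes, and pointed the same way in f/f mice. Of 10 endothelial markers 8 rose in old AKO against young AKO (median 1.00), with summed levels of 735 to 1090 CPM in old AKO and 400 to 570 CPM in young AKO. Of 8 mesothelial markers 7 rose (median 2.42), with sums of 50.1 to 115 CPM in old AKO and 8.88 to 27.2 CPM in young AKO. Without old AKO replicate 1 or 2 or young AKO replicate 2 or 3 the counts were 2, 3, 3 and 2 for endothelial and 0, 2, 3 and 1 for mesothelial markers, and limma-voom called 4 mesothelial markers. In f/f ageing 10 of 10 endothelial and 8 of 8 mesothelial markers were above 0 (medians 0.64 and 1.46). There edgeR called 1 and 3 higher, DESeq2 3 and 5, and limma-voom 1 and 5. With a library left out these edgeR counts ran from 0 to 3 and from 0 to 6. In young mice the endothelial sum was 400 to 570 CPM in AKO and 623 to 1180 CPM in f/f, and edgeR called 1 of the 10 lower, where DESeq2 called 8 and limma-voom 0. The edgeR count of 1 in young mice was 8 without young f/f replicate 1, 4 without old f/f replicate 3 and 2 without old f/f replicate 2. It was 0 without old AKO replicate 2, any 1 of the young AKO libraries or young f/f replicate 2. The part of any of these cells in the values of the 10 genes was not tested.

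**Figure D5:**
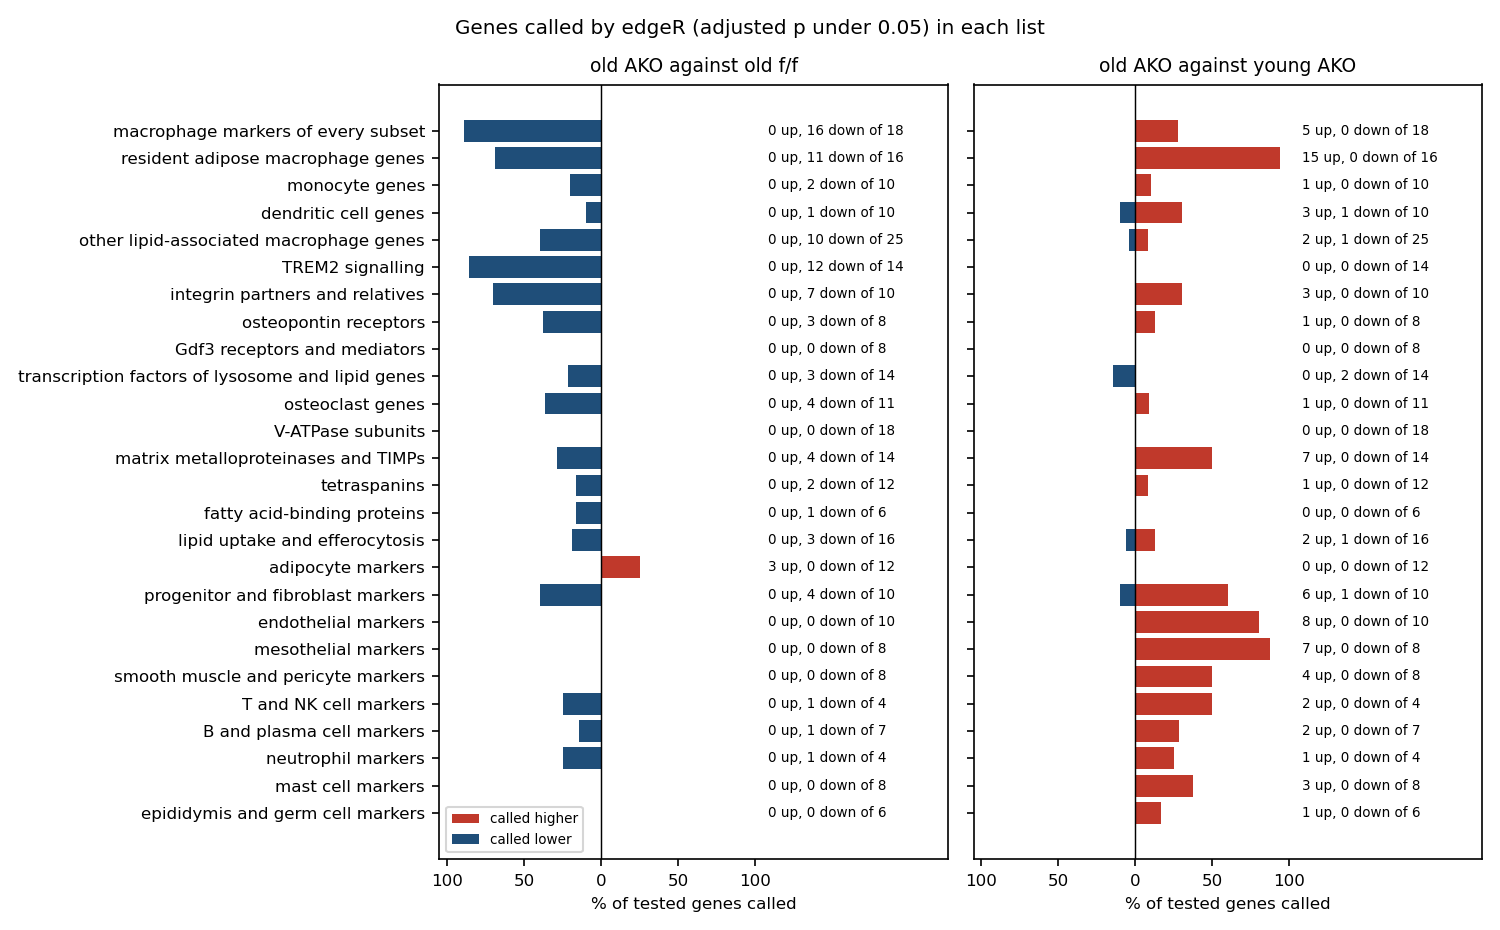
Share of the tested genes of each list that edgeR called higher (red, to the right) or lower (blue, to the left) at an adjusted p under 0.05, in old AKO against old f/f (left) and in old AKO against young AKO (right), with the counts printed beside the bars. TREM2 signalling has 12 of 14 genes called on the left and 0 on the right, and resident adipose macrophage genes 11 of 16 on the left and 15 on the right. The median log2 differences on the right, which are not drawn, were 1.07 for TREM2 signalling and 1.26 for resident adipose macrophage genes.

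The 15 genes closest to the median profile of the 10 over the 12 libraries, among 12637 genes with a mean of at least 1 CPM, were found by the root mean square difference of centred log2 CPM. They lay 0.217 to 0.353 from it: Cd300c2, Cd84, Slc37a2, Ctss, Mpeg1, Hk3, F7, Lat2, Myo1f, Cd200r1, Itgb2, Rgs1, Il7r, Slc15a3 and Dpep2. The closest, Cd300c2, a receptor of myeloid cells, had 1.43, 1.88 and 1.26 CPM in old AKO, against 11.3, 5.89 and 48.4 CPM in old f/f. Like all of the 10 genes but Fabp5, it was highest in old f/f replicate 3. Of the 10 genes Atp6v0d2 (0.222), Trem2 (0.276), Itgax (0.284), Gpnmb (0.356) and Mmp12 (0.393) lay close to their own median profile. Cd9 (0.900), Spp1 (0.908), Gdf3 (1.20), Fabp5 (1.65) and Itgad (1.92) lay further away, Fabp5 with the flattest profile of the 10. The libraries share their groups, so nearness over them is a description.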

How the data were processed

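The 12 libraries of primary adipocyte poly-A RNA were made with the TruSeq mRNA kit and read on a HiSeq4000, per the labels' protocols. The submitters' processing notes name HISAT2 2.1.0, HISAT, Bowtie2 and StringTie 1.3.4d and mouse genome mm10. For 36779 transcripts the deposited table holds FPKM and the authors' estimated counts of reads, which are whole and not scaled for depth. The authors' FPKM values were used to compare levels between genes and as an alternative. An empty line (1) was left out. Whether counting used the strand is not given in the sources used here.

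Estimated counts were summed per gene symbol and scaled by TMM. Genes kept by filterByExpr (15068 of 24541) were tested with the edgeR 4.0.16 quasi-likelihood test (R 4.3.3) in a fit of the 12 libraries with a mean per group (common coefficient of biological variation 24.69%). Two-sided p-values were adjusted over all genes tested (Benjamini-Hochberg), and a gene is called at an adjusted p under 0.05. Values are means ± SD over 3 libraries, and log2 differences ± SE. The method was tested on counts simulated for young AKO against young f/f alone, without a library that stood apart as old f/f replicate 3 does.

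The 10 genes and the 26 lists set beside them were chosen with earlier results of these data known. Named genes are the 10, Crtc2, up to 4 genes per list with the smallest p in old AKO against old f/f, partner genes named beforehand and the 15 nearest genes. Not all are printed. Log2 CPM relative to markers used a prior count of 1.

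Alternatives were RLE factors, DESeq2 1.42.0, limma-voom (limma 3.58.1), a looser and a stricter filter (1 CPM in 3 libraries), limma-trend on log2(FPKM + 1) and log2(FPKM + 0.1), a replicate block, fits of only the groups compared, and libraries left out. Python 3.11.15, pandas 2.3.3 and matplotlib 3.10.9 were used for tables and figures.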

Additional observations from a re-analysis of the deposited data

Results flagged for a closer look

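Irf8, a transcription factor of macrophages and dendritic cells, had 32.3, 20.2 and 24.2 CPM in young AKO, against 13.7, 18.4 and 16.7 CPM in young f/f. It had 17.7, 14.1 and 13.7 CPM in old AKO, against 28.8, 29.8 and 50.4 CPM in old f/f. Every AKO library was thus above every f/f library in young mice and below in old mice, which is why it is listed. The named genes were searched for such opposite patterns and Irf8 alone was found. How many of all genes tested show the pattern was not counted. The genotype difference in old mice minus that in young mice was -1.91 ± 0.34 on the log2 scale (SE), and it did not pass the edgeR test of the interaction (adjusted p = 0.284).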

How the results depend on the processing

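The direction of the median of the 10 genes in young mice and in old genotypes was the same under every alternative run, and so was that of each gene in old mice. The median in old genotypes was -2.45 on log2(FPKM + 1) and -2.17 without old f/f replicate 3 and young f/f replicate 1 together. With a library left out it ran from -4.42 to -2.17, in f/f ageing from 1.84 to 3.88, and in AKO ageing from -0.25 to 0.47. DESeq2 called 1 of the 10 in young mice, and no other alternative called any. In young mice, with a library left out, Gdf3 ran from -0.26 (without young AKO replicate 1) to 2.08 and Spp1 from -1.12 to 0.80 (without young f/f replicate 2). Gdf3 was also -0.17 without young f/f replicate 3, and Spp1 0.08 with limma-voom. The cause was not tested.

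Counts of called list genes changed more. The labels give each group replicates 1 to 3, but same-numbered libraries did not deviate together (correlations of -0.203 to 0.068), so the numbers are not taken as pairs. With the replicate block 12 genes in all were called in old genotypes, against 897. The block count in old AKO against old f/f was 0 for macrophage markers, 2 for resident genes, 0 for other lipid-associated genes and 0 for TREM2 signalling, and 1 for other lipid-associated genes in AKO ageing. With only the groups compared the counts in old genotypes were 1, 4, 0 and 0 in the same order. In f/f ageing they were 8 for macrophage markers, 1 for other lipid-associated genes and 0 for TREM2 signalling, and in AKO ageing 15, 7 and 9. With the 2 libraries out, AKO ageing had 14, 6 and 9. Limma-voom gave 3 other lipid-associated and 3 TREM2 signalling genes in old genotypes, DESeq2 gave 2 TREM2 signalling genes in AKO ageing, and no filter gave 1 other lipid-associated gene there.

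With a library left out, counts in old genotypes ran from 0 to 16 for macrophage markers, 0 to 12 for resident genes, 0 to 12 for other lipid-associated genes and 0 to 12 for TREM2 signalling. In AKO ageing they ran from 1 to 13, 6 to 15, 1 to 4 and 0 to 8, and in f/f ageing from 9 to 18 for other lipid-associated genes. Crtc2 in young mice was 1.90 with only the groups compared (adjusted p = 0.12), and in old mice 1.64 to 1.74 with a library left out. Totals of 45935795 reads or more limit Gdf3 and Itgad, which had under 20 reads in several libraries.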
